A study of Mus musculus with 6 samples.

Results

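The step from 2 to 8 population doublings in serially passaged mouse embryonic fibroblasts was examined gene by gene. It covered 12981 of the 21988 gene symbols in the expression table, those with at least 1 TPM (a length-corrected transcript level scaled to 1000000 per library) in 2 or more of the 4 libraries made at population doubling 2 (PD2) and population doubling 8 (PD8). At the edge of that rule, Bmp8a was just inside with 1.001 TPM in its second-highest library and Dlx6 just outside with 0.9999 TPM. The fibroblasts were isolated from pregnant C57BL/6 mice (13.5 days) and the labels name no genetic or drug treatment; population doublings are counted from the log2 ratio of harvested over seeded cell numbers, added up from the primary culture. Each of PD2, PD8 and the later PD14 had 1 strand-specific library depleted of ribosomal RNA (replicate 1) and 1 library enriched for poly(A) RNA (replicate 2), so the replicate number is also the library method. Whether the libraries of a group came from separate cultures or embryos was not stated, and the p-values below measure only the spread between these libraries.

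Primary fibroblasts divide a limited number of times in culture before they enter senescence, a lasting arrest of the cell cycle. Products of Cdkn2a and Cdkn1a block the cyclin-dependent kinases, genes for DNA replication and mitosis are shut down, and senescent fibroblasts release cytokines, proteases, growth factors and complement proteins, together called the senescence-associated secretory phenotype. Mouse embryonic fibroblasts are a mixed primary culture, and cells of other embryonic tissues can persist in early passages.

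TPM divides read counts by transcript length and library total, so the number of reads behind a value is unknown here. Listed TPM summed to 1000000 in every poly(A) library and to 93.7 to 95.1% of that in the rRNA-depleted ones, and 12554 to 12827 symbols reached 1 TPM in a library. Mitochondrially encoded transcripts took 6.82% of listed TPM at PD2 and 5.57% at PD8 with rRNA depletion, and 6.74% and 4.35% with poly(A) enrichment. The fibroblast label was checked on its markers: Col1a1 lay between 3068 and 7305 TPM in the 4 libraries and Pdgfrb between 193 and 229 TPM. Pecam1 and Cdh5 (endothelium) and Epcam (epithelium) were below 1 TPM in all of them. Other markers of these types were not silent. The rule of at least 1 TPM in 2 libraries was met by 8 of 16 listed endothelial and 6 of 16 epithelial markers. It was also met by 18 of 22 listed markers of macrophages and leukocytes. In bulk RNA, a smaller share of cells of a type and less RNA per cell cannot be told apart.

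At PD8, RNA for the complement proteins C3 and C1s and for the Wnt agonist R-spondin 2 was higher than at PD2 in both library methods, and these were the only genes past the threshold. C3, the central component of the complement cascade, had 8.96 TPM at PD2 and 114 TPM at PD8 with rRNA depletion, and 3.70 and 54.4 TPM with poly(A) enrichment, a fitted rise of 3.55 on the log2(TPM + 1) scale (SE 0.210). C1s1, which encodes the complement protease C1s that cleaves C4 and C2, had 41.9 TPM at PD2 and 224 TPM at PD8 with rRNA depletion, and 18.4 and 119 TPM with poly(A) enrichment, a fitted rise of 2.51 (SE 0.124). Rspo2, a secreted protein that strengthens Wnt signalling at the cell surface, had 26.4 TPM at PD2 and 252 TPM at PD8 with rRNA depletion, and 3.23 and 28.7 TPM with poly(A) enrichment, a fitted rise of 3.01 (SE 0.161). For none of the 3 did the PD2 and PD8 values overlap, even across methods. Their methods differed in level: Rspo2 was several times lower in each poly(A) library than in its rRNA-depleted partner, while its change between passages was 3.21 and 2.81.

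The model was limma on log2(TPM + 1) over all 6 libraries with a term for passage and a term for library method, and p-values were adjusted over the 12981 genes by the Benjamini-Hochberg method. Adjusted p was 0.0373 for C1s1, 0.0373 for Rspo2 and 0.0414 for C3. The 3 genes were 0.0231% of those tested, and 0% were lower at the same threshold of 0.05. At an unadjusted p under 0.05, 1593 genes were higher (12.3%) and 1117 lower (8.6%). That split depended on scaling, since median centring of the libraries gave 1332 higher and 1412 lower. With adjusted p under 0.1 there were 200 genes higher and 87 lower. None of the 3 calls was left in a fit to the 4 PD2 and PD8 libraries alone, without the term for library method, or without any 1 of the PD8 and PD14 libraries, though the fitted differences were the same or close (2.40 to 2.63 for C1s1, 3.37 to 3.72 for C3 and 2.92 to 3.10 for Rspo2). The count was 745 genes without the rRNA-depleted PD2 library and 329 without the poly(A) one, fits in which PD2 has 1 library and is assumed to vary like the other groups.

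**Figure D1:**
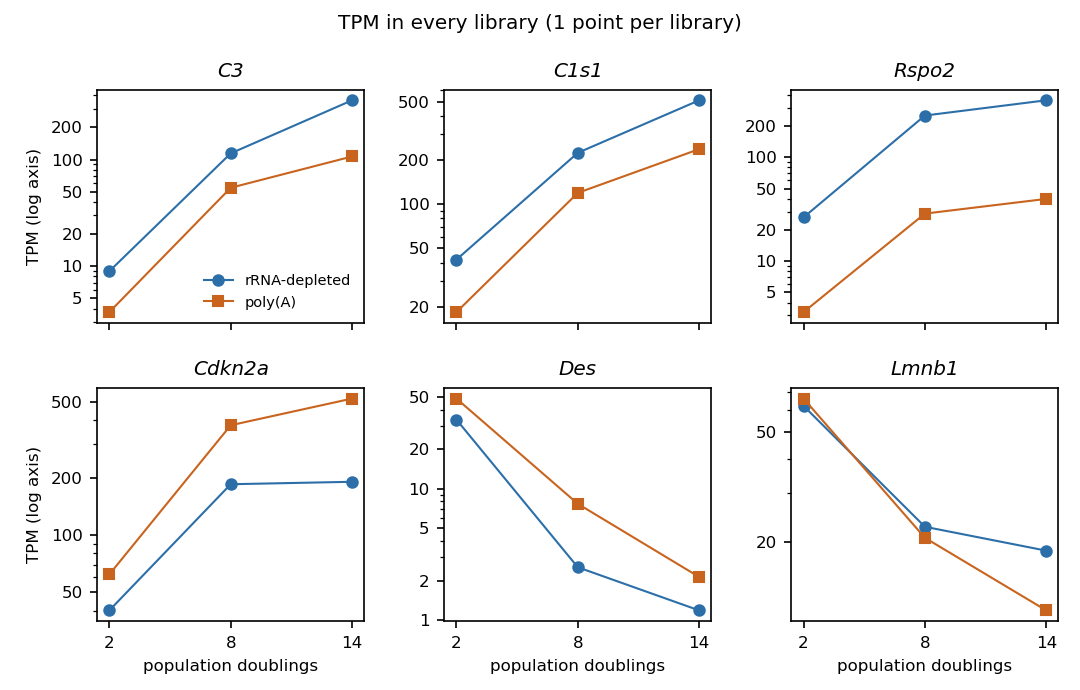
TPM (log axis) against population doublings for 6 genes, with 1 point per library, circles for rRNA-depleted and squares for poly(A) libraries. C3, C1s1 and Rspo2 were the genes past the threshold between PD2 and PD8; Cdkn2a, Des and Lmnb1 did not pass it, and in each of the 6 panels both methods moved the same way from PD2 to PD8.

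C3 lies on chr17 from 57203970 to 57228136 and C1s1 on chr6 from 124530345 to 124542359, both on the minus strand, and Rspo2 on chr15 from 43020794 to 43170826, also on the minus strand (GENCODE M21 annotation of mm10). C1s1 sits next to its partner proteases C1ra and C1rb and has a close copy, C1s2, so reads shared between these copies could have been split between them. The C3 promoter is shown because C3 was the gene past the threshold with the largest fitted rise. The window runs from 250 bases before to 50 bases after the transcript start, read on the gene's strand (RefSeq, GRCm38.p6, chr17:57228087-57228386, minus strand).
C3: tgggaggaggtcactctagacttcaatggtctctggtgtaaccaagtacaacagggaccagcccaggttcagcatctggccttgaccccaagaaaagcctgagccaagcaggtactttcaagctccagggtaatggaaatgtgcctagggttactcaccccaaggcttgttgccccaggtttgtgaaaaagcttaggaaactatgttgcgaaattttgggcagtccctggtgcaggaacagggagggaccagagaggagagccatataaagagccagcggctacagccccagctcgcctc
It stays in lower case because none of the strings searched, on either strand, occurs in it: TTTGAA (cell cycle homology region), CCAAT, TTTGGCGC and TTTCCCGC (E2F), GAAANNGAA (interferon-stimulated response element), GGANTTTCC (NF-kappaB), TGANTCA (AP-1), GGAATG (TEAD) and TCACNCCAC (sterol regulatory element). Such a window was at hand for 9876 of the 12981 genes, and in the windows below capitals mark matches to these strings.

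A wider set of genes was described by size, without a test: those whose log2(TPM + 1) differed by at least 1, a 2-fold change on that scale, in the same direction in the rRNA-depleted pair and in the poly(A) pair. By this measure 239 genes were higher at PD8 (1.84%) and 113 lower (0.871%). Alone, the rRNA-depleted pair gave 537 genes higher and 514 lower, and the poly(A) pair 791 higher and 317 lower. Quantile normalization narrowed the difference in number between directions to 199 higher and 149 lower. Of all genes tested, 9053 (69.7%) differed in the same direction in both methods, and the changes in the 2 methods had a Pearson correlation of 0.515 and a Spearman correlation of 0.521 across genes, which are not independent replicates. The median change was -0.0070 in the rRNA-depleted pair and 0.068 in the poly(A) pair.

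**Figure D2:**
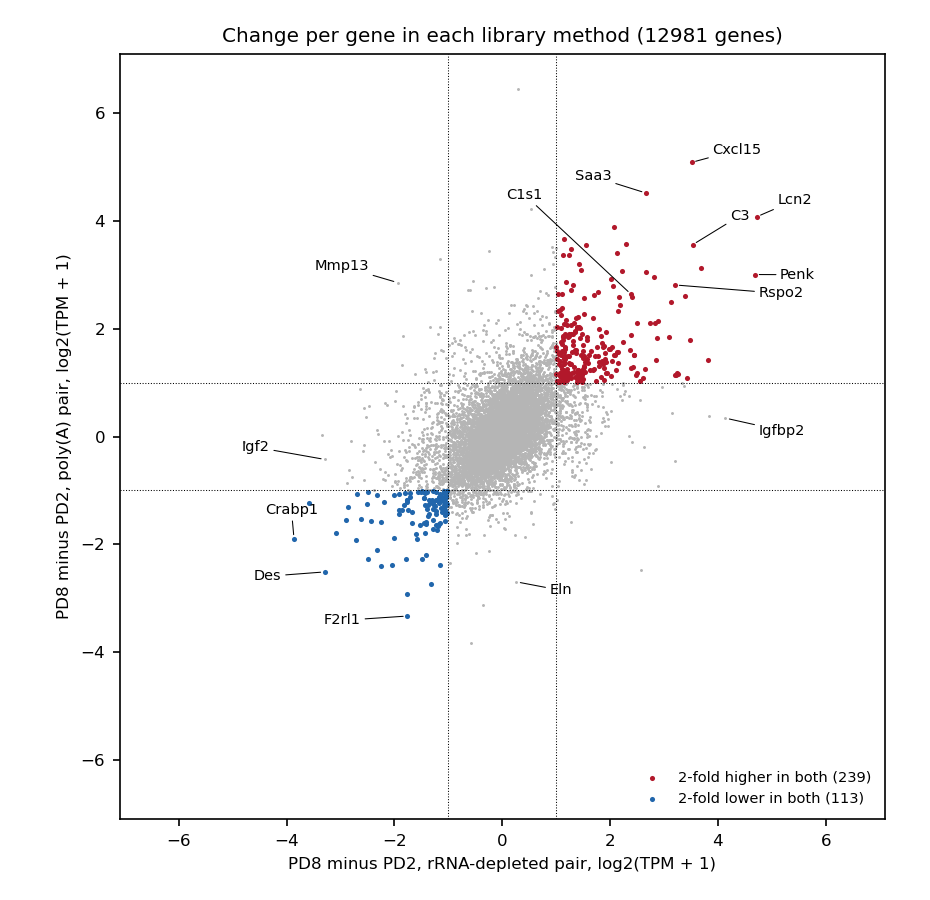
Each point is 1 of 12981 genes: the PD8 minus PD2 difference of log2(TPM + 1) in the rRNA-depleted pair (x axis) and in the poly(A) pair (y axis), with dotted lines at 2-fold. The 239 genes 2-fold higher in both pairs are red and the 113 lower in both are blue; Igfbp2, Eln, Igf2 and Mmp13 are examples whose change was large in 1 pair only or opposite between pairs.

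Ranked by the smaller difference of the 2 methods, the 15 genes with the largest upward differences shared by both (mean of at least 5 TPM) included C3, C1s1 and Rspo2. The others were Lcn2, Cxcl15, C1rb, Penk, Cdsn, Serpina3n, Saa3, Rarres1, Prelp, Ptx3, Steap4 and Wisp2, and none of these 12 passed the threshold. Lcn2, which binds iron-carrying bacterial siderophores, had 6.97 TPM at PD2 and 209 TPM at PD8 with rRNA depletion, and 0.880 and 30.7 TPM with poly(A) enrichment (fitted difference 4.40, SE 0.364, adjusted p 0.0526). Penk, the precursor of the enkephalin opioid peptides, had 247 TPM at PD2 and 6417 TPM at PD8 with rRNA depletion, and 17.2 and 145 TPM with poly(A) enrichment. The rRNA-depleted PD8 value of Penk was the highest of the 4 by far, and the difference was 4.69 in that method against 3.004 with poly(A). Cxcl15, a neutrophil-attracting chemokine, had 5.44 TPM at PD2 and 72.6 TPM at PD8 with rRNA depletion, and 0.995 and 66.7 TPM with poly(A) enrichment. Cdsn, the adhesion protein corneodesmosin of skin, had 11.4 TPM at PD2 and 86.9 TPM at PD8 with rRNA depletion, and 2.11 and 23.1 TPM with poly(A) enrichment, and Rarres1, a retinoid-responsive membrane protein, had 5.90 TPM at PD2 and 71.2 TPM at PD8 with rRNA depletion, and 4.11 and 30.01 TPM with poly(A) enrichment. For Lcn2, Cxcl15, Cdsn and Rarres1 both PD8 values exceeded both PD2 values, whereas the poly(A) PD8 value of Penk lay below its rRNA-depleted PD2 value. The matrix proteoglycan Prelp and the CCN-family protein Wisp2 had fitted differences of 2.81 (SE 0.349) and 2.64 (SE 0.347).

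Of the 15 with the largest shared downward differences, none passed the threshold. Des, the intermediate filament of muscle, had 33.5 TPM at PD2 and 2.53 TPM at PD8 with rRNA depletion, and 48.5 and 7.68 TPM with poly(A) enrichment (fitted difference -2.90, SE 0.278, adjusted p 0.0679). Crabp1, a cytosolic retinoic acid-binding protein of embryonic mesenchyme and neural crest, had 646 TPM at PD2 and 43.5 TPM at PD8 with rRNA depletion, and 1393 and 373 TPM with poly(A) enrichment. Its methods differed in size: -3.86 with rRNA depletion and -1.90 with poly(A). Mdk, the heparin-binding growth factor midkine of the embryo, had 76.3 TPM at PD2 and 12.8 TPM at PD8 with rRNA depletion, and 117 and 23.3 TPM with poly(A) enrichment. The protease-activated receptor F2rl1 had 4.97 TPM at PD2 and 0.761 TPM at PD8 with rRNA depletion, and 69.4 and 6.003 TPM with poly(A) enrichment, and Nes, the filament of neural and muscle progenitors, had 19.6 TPM at PD2 and 5.91 TPM at PD8 with rRNA depletion, and 38.7 and 9.59 TPM with poly(A) enrichment. In Des, Mdk and Nes both PD8 values lay below both PD2 values, and in Crabp1 also, whereas for F2rl1 the poly(A) PD8 value was above the rRNA-depleted PD2 value. The other members were Tfpi2, Megf10, Chchd10, Slc38a4, Ccdc71, Igfbp5, Zdbf2, Crispld2, Mfsd2a and Ankrd1, with fitted differences from -1.67 (Ankrd1) to -2.44 (Chchd10) apart from Mfsd2a (-1.53) and Ccdc71 (-1.64), which were nearer 0. Chchd10 shares 155 exonic bases with Mmp11 and Ccdc71 shares 220 with Klhdc8b, each on the opposite strand. Whether counting used strand is not given in the sources used here, so these values may include reads of the partner. The same limit holds for some genes given below. Cfb shares 2246 exonic bases with Gm20547 and Igf2 3596 with Gm49394, both on the same strand. Glmp shares 1278 with Tmem79, Ccnd1 1100 with LTO1, Mest 912 with Copg2 and Ccna2 510 with Exosc9, all on the opposite strand. These are examples, and only protein-coding partners were searched.

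**Figure D3:**
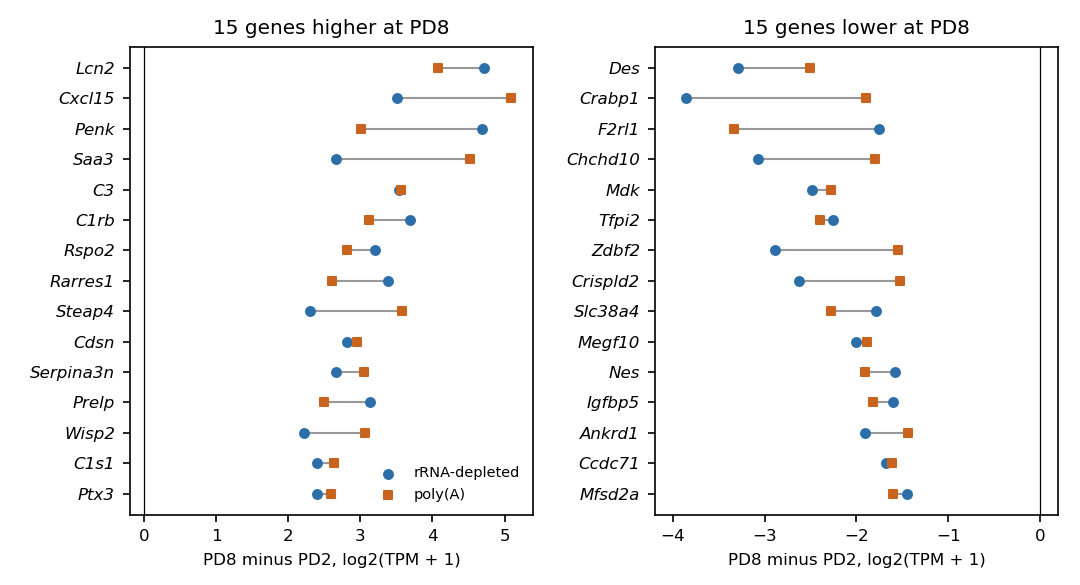
PD8 minus PD2 difference of log2(TPM + 1) for the 15 genes with the largest shared upward (left) and downward (right) differences, circles for the rRNA-depleted pair and squares for the poly(A) pair. C3, C1s1, Ptx3 and Cdsn have nearly the same difference in both methods, while Cxcl15, Penk, Saa3, Crabp1 and F2rl1 are among those that differ by more than 1 between methods.

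The genes were next read through 24 lists of pathways and 9 lists of cell type markers. The lists were chosen with earlier results of these data known, so their order by median is a description. Counts of members at a threshold are set against the shares over all genes tested. These were 12.3% higher and 8.6% lower at an unadjusted p under 0.05, and 1.84% and 0.871% at 2-fold in both methods. The median fitted difference over all genes was 0.032. Both methods had the same sign in 69.7% of all genes, a share not split into higher and lower. Shares over all genes were also not counted for a sign within a single method, or for a larger difference in the poly(A) pair. Counts of members by sign alone are therefore descriptions. A low gene could pass the filter on low values (at least 1 TPM in 2 libraries) through its PD2 or its PD8 libraries alone. That favours a count in the direction of that passage. The members named are the 2 with the largest absolute fitted difference in a list, a panel of senescence genes, and others chosen after their values were seen.

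**Figure D4:**
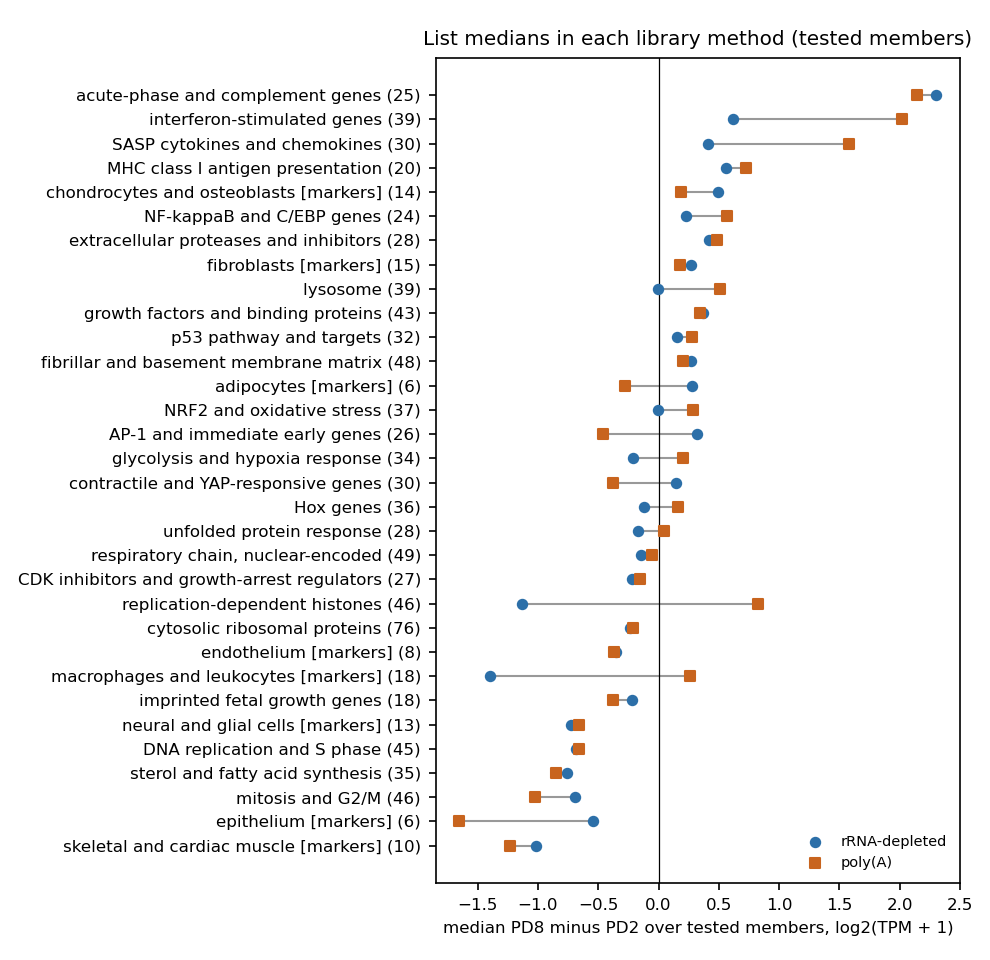
Median PD8 minus PD2 difference of log2(TPM + 1) over the tested members of each list (number in brackets), circles for the rRNA-depleted pair and squares for the poly(A) pair; the erythroid list, with 1 tested member, is left out. Acute-phase and complement genes stand highest in both methods, muscle markers, mitosis and sterol genes lie low in both, and histones and macrophage markers lie on opposite sides of 0.

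Genes of mitosis were lower at PD8 in both methods. All 46 had a negative difference in both pairs, 38 of 46 were lower at an unadjusted p under 0.05 and 0 passed the adjusted threshold, with a median fitted difference of -0.83. Only Mki67 and Mybl2 reached 2-fold in both methods. Mki67, the proliferation antigen Ki-67, had 121 TPM at PD2 and 56.4 TPM at PD8 with rRNA depletion, and 52.1 and 20.1 TPM with poly(A) enrichment. Mybl2, the B-Myb subunit of the complex that switches on mitotic genes, had 13.1 TPM at PD2 and 5.80 TPM at PD8 with rRNA depletion, and 14.3 and 5.84 TPM with poly(A) enrichment. Ccna2, the cyclin of S phase and mitotic entry, had a fitted difference of -1.12 (SE 0.297), the kinetochore kinase Bub1 -1.03 (SE 0.277) and the mitotic cyclin Ccnb1 -0.94 (SE 0.260). Members ranged from -1.21 to -0.20. From PD8 to PD14 the median of the same list was -0.75, and the steps share the PD8 libraries.

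Genes of DNA replication and S phase had a median of -0.69, with 29 of 45 lower and 0 higher at the unadjusted threshold. Of the 4 that reached 2-fold in both methods, Cdc6 loads the replicative helicase and had 9.23 TPM at PD2 and 3.42 TPM at PD8 with rRNA depletion, and 9.94 and 3.85 TPM with poly(A) enrichment. Mcm5, a helicase subunit, had 36.8 TPM at PD2 and 16.04 TPM at PD8 with rRNA depletion, and 40.01 and 17.6 TPM with poly(A) enrichment. Uhrf1, which carries DNA methylation through replication, and Pola1, the catalytic subunit of polymerase alpha, had fitted differences of -1.20 (SE 0.259) and -1.06 (SE 0.281). For Cdc6 and Mcm5 the TPM values of the 2 methods were close at each passage. The median of the 46 replication-dependent histone genes lay on opposite sides of 0 by method, at -1.13 in the rRNA-depleted pair and 0.82 in the poly(A) pair, while 1 member was higher and 6 were lower in both. Their summed TPM was 12128 at PD2 and 6059.6 at PD8 with rRNA depletion, and 619.8 and 1305 with poly(A). Messages of these histones mostly lack a poly(A) tail. Hist1h3g had 184 TPM at PD2 and 52.99 TPM at PD8 with rRNA depletion, and 4.45 and 3.02 TPM with poly(A) enrichment, and Hist1h4h 406 TPM at PD2 and 310.0 TPM at PD8 with rRNA depletion, and 10.3 and 54.2 TPM with poly(A) enrichment.

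Mitotic promoters are known for a cell cycle homology region and for CCAAT boxes, and Cdc20, the activator of the anaphase-promoting complex, is shown because its window holds both (GRCm38.p6, chr4:118437294-118437593, minus strand).
Cdc20: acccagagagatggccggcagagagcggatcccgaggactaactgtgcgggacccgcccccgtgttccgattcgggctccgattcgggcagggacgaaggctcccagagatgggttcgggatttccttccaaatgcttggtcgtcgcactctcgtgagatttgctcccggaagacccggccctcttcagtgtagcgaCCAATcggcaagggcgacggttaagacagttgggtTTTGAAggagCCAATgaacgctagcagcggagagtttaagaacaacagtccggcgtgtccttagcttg
Capitals mark TTTGAA at base 233 and CCAAT at bases 198 and 243, counted from the 5′ end of the window. Of 37 mitosis genes with a window, 25 held TTTGAA on either strand (67.6%) against 11.8% of all windows, and 27 held CCAAT (73.0%) against 38.9%. For the 36 replication genes with a window, TTTGGCGC and TTTCCCGC were each found in 6 (16.7%), against 1.03% and 2.1% of all windows. Cdc20 itself had 55.3 TPM at PD2 and 43.1 TPM at PD8 with rRNA depletion, and 85.7 and 39.7 TPM with poly(A) enrichment. These are letter matches in a fixed window and do not show binding. The lists were set by pathway, so the shares describe their members and not the change from PD2 to PD8. Of the 15 genes with the largest shared differences in each direction, 12 had a window. TTTGAA was in 2 higher and 1 lower, CCAAT in 1 and 5, GAAANNGAA in 2 and 3, GGAATG in 2 and 3, and TCACNCCAC in 1 and 0. None held TTTGGCGC, TTTCCCGC, GGANTTTCC or TGANTCA.

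Among 27 regulators of the arrest, Cdkn2a was the only one 2-fold higher in both methods, and Cdkn1c and Lmnb1 were 2-fold lower. Cdkn2a, whose locus encodes the kinase inhibitor p16Ink4a and the p53 activator p19Arf, had 40.2 TPM at PD2 and 185 TPM at PD8 with rRNA depletion, and 62.1 and 376 TPM with poly(A) enrichment, a fitted difference of 2.37 (SE 0.212, adjusted p 0.0526). The table gives 1 value per symbol, so its products are not told apart. Its neighbour Cdkn2b, encoding p15Ink4b, had 79.4 TPM at PD2 and 128 TPM at PD8 with rRNA depletion, and 116 and 243 TPM with poly(A) enrichment, and Cdkn1a, encoding the p53 target p21, had 352 TPM at PD2 and 544 TPM at PD8 with rRNA depletion, and 699.5 and 1199.8 TPM with poly(A) enrichment. In contrast, the imprinted inhibitor Cdkn1c had 221 TPM at PD2 and 57.96 TPM at PD8 with rRNA depletion, and 89.7 and 34.3 TPM with poly(A) enrichment and was lower in both methods. Lmnb1, the nuclear lamina protein whose loss marks senescent fibroblasts, had 62.2 TPM at PD2 and 22.7 TPM at PD8 with rRNA depletion, and 66.1 and 20.7 TPM with poly(A) enrichment (fitted difference -1.52, SE 0.222, adjusted p 0.0830). The chromatin proteins Hmgb2 and Hmga1 had fitted differences of -1.14 (SE 0.214) and -1.37 (SE 0.208), and that of cyclin D1 (Ccnd1) was 1.22 (SE 0.223). At the unadjusted threshold 6 of the 27 were higher and 10 lower.

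p53 itself (Trp53) had a fitted difference of -0.30 (SE 0.191), within 2 standard errors of 0. Of 32 genes of the p53 pathway, 8 were higher and 0 lower at the unadjusted threshold, with a median of 0.27, and Fas was the only member 2-fold higher in both methods. Fas, a death receptor, had 32.2 TPM at PD2 and 72.01 TPM at PD8 with rRNA depletion, and 20.8 and 91.6 TPM with poly(A) enrichment. Gdf15, a stress-induced secreted factor, had 4.41 TPM at PD2 and 12.7 TPM at PD8 with rRNA depletion, and 7.10 and 12.4 TPM with poly(A) enrichment, and the p53 ubiquitin ligase Mdm2 a fitted difference of 0.62 (SE 0.217).

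Acute-phase and complement genes had the highest median of any list, 1.88, with 2.30 in the rRNA-depleted pair and 2.15 in the poly(A) pair. Of 31 listed, 25 passed the filter on low values; of these, 20 were higher and 0 lower at the unadjusted threshold, 14 were 2-fold higher in both methods, and C3 and C1s1 rose past the adjusted one. Besides C1s1, the initiating protease genes C1ra and C1rb had fitted differences of 2.30 (SE 0.163) and 3.41 (SE 0.251). C1rb was at 0.916 and 0.206 TPM at PD2, and at 23.7 and 9.52 TPM at PD8. C1rb thus passed the filter on low values through PD8 alone, which favours its being counted as higher. C4b, the substrate of C1s, had 4.31 TPM at PD2 and 28.5 TPM at PD8 with rRNA depletion, and 0.388 and 2.07 TPM with poly(A) enrichment, and Cfb, the protease of the alternative pathway, had 1.21 TPM at PD2 and 11.4 TPM at PD8 with rRNA depletion, and 2.19 and 6.24 TPM with poly(A) enrichment. The inhibitor Serping1, which blocks C1r and C1s, was higher too and had 35.5 TPM at PD2 and 160.4 TPM at PD8 with rRNA depletion, and 15.8 and 42.4 TPM with poly(A) enrichment. For C4b the poly(A) PD8 value lay below the rRNA-depleted PD2 value, so the groups overlapped across methods while each pair was ordered the same way.

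Among pattern-recognition and acute-phase members, Ptx3, a pentraxin that binds C1q, had 244 TPM at PD2 and 1294 TPM at PD8 with rRNA depletion, and 128 and 776 TPM with poly(A) enrichment. Saa3, the fibroblast and macrophage form of serum amyloid A, had 23.3 TPM at PD2 and 153 TPM at PD8 with rRNA depletion, and 3.78 and 108 TPM with poly(A) enrichment, and Lbp, which hands lipopolysaccharide to its receptor, had 3.43 TPM at PD2 and 31.7 TPM at PD8 with rRNA depletion, and 0.994 and 7.83 TPM with poly(A) enrichment. Serpina3n, a serine protease inhibitor, had 17.6 TPM at PD2 and 117 TPM at PD8 with rRNA depletion, and 5.80 and 55.6 TPM with poly(A) enrichment. Steap4, a metalloreductase, had a fitted difference of 2.94 (SE 0.323). Both PD8 values exceeded both PD2 values for all 5. Serpina3n and Saa3 belong to families of related genes, and how any shared reads were divided is uncertain. The receptor genes C3ar1 and C5ar1, which leukocytes express, went the other way in the rRNA-depleted pair, at -1.50 and -1.32, and were at 0.51 and -0.16 with poly(A).

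Cytokines and chemokines were higher at PD8 in part. Of 36 listed, 30 passed the filter, of which 11 were higher and 0 lower at the unadjusted threshold, and the median was 0.41 in the rRNA-depleted pair and 1.58 in the poly(A) pair. The 5 that were 2-fold higher in both methods were Cxcl15, Cxcl5, Cxcl1, Il1rn and Ccl20. Cxcl5, a neutrophil chemokine, had 235 TPM at PD2 and 1037 TPM at PD8 with rRNA depletion, and 80.4 and 855 TPM with poly(A) enrichment, and Cxcl1, a related one, had 109 TPM at PD2 and 264 TPM at PD8 with rRNA depletion, and 12.5 and 149 TPM with poly(A) enrichment. Il1rn, the antagonist of the interleukin 1 receptor, had 39.4 TPM at PD2 and 217 TPM at PD8 with rRNA depletion, and 8.18 and 25.1 TPM with poly(A) enrichment, and Ccl20 had 2.25 TPM at PD2 and 7.62 TPM at PD8 with rRNA depletion, and 27.8 and 132 TPM with poly(A) enrichment. Il6, the cytokine most used to define the secretory phenotype, had 13.2 TPM at PD2 and 7.43 TPM at PD8 with rRNA depletion, and 3.28 and 6.41 TPM with poly(A) enrichment, lower at PD8 in 1 method and higher in the other. Ccl2, which attracts monocytes, had 164 TPM at PD2 and 271 TPM at PD8 with rRNA depletion, and 317 and 1074 TPM with poly(A) enrichment. Interleukin 1 genes Il1a and Il1b were below 1 TPM in all 4 libraries.

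Of 24 genes of NF-kappaB and C/EBP signalling, 7 were higher and 0 lower at the unadjusted threshold. The median was 0.23 with rRNA depletion and 0.57 with poly(A), 0.36 in the fit. Icam1, an adhesion molecule and NF-kappaB target, had 30.6 TPM at PD2 and 87.9 TPM at PD8 with rRNA depletion, and 32.02 and 89.01 TPM with poly(A) enrichment, nearly the same in both methods. Tlr3, the receptor for double-stranded RNA, had 3.65 TPM at PD2 and 17.4 TPM at PD8 with rRNA depletion, and 2.76 and 10.6 TPM with poly(A) enrichment. These were the only 2 at 2-fold in both methods.

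Interferon-stimulated genes were higher at PD8, more so in the poly(A) pair. The median difference was 0.62 with rRNA depletion and 2.02 with poly(A), 35 of the 39 members that passed the filter (of 45 listed) were positive in both, and the poly(A) difference was the larger in 37 of 39. At the unadjusted threshold 22 were higher and 0 lower, 11 were 2-fold higher in both methods, and 0 passed the adjusted threshold. Isg15, a ubiquitin-like modifier, had 12.6 TPM at PD2 and 30.98 TPM at PD8 with rRNA depletion, and 25.5 and 271 TPM with poly(A) enrichment (fitted difference 2.30, SE 0.738). Ifit1, which binds foreign RNA ends, had 6.78 TPM at PD2 and 16.3 TPM at PD8 with rRNA depletion, and 4.58 and 69.7 TPM with poly(A) enrichment. Ifi27 had 63.5 TPM at PD2 and 167 TPM at PD8 with rRNA depletion, and 59.4 and 244 TPM with poly(A) enrichment. Isg15 and Ifit1 had a larger difference in the poly(A) pair, and so did Ifi27, which Ifi27 was at 1.38 and 2.02.

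Markers of macrophages and other leukocytes also differed by method. Of 22 markers, 20 were lower at PD8 in the rRNA-depleted pair and 14 were higher in the poly(A) pair. The 18 tested had median differences of -1.40 and 0.26 in the 2 methods, against -0.0070 and 0.068 over all genes. The summed level of the 22 markers was 180.3 TPM at PD2 and 35.7 TPM at PD8 with rRNA depletion, and 453 and 769 TPM with poly(A). Lyz2 made up most of the poly(A) sums, at 337 and 621 TPM. Adgre1, the macrophage antigen F4/80, had 2.65 TPM at PD2 and 0.647 TPM at PD8 with rRNA depletion, and 5.69 and 26.2 TPM with poly(A) enrichment, and Ptprc, the pan-leukocyte antigen CD45, had 1.002 TPM at PD2 and 0.169 TPM at PD8 with rRNA depletion, and 1.43 and 1.74 TPM with poly(A) enrichment. No marker of the list was at 0 in all 4 libraries. Their part in the interferon, cytokine and complement results was not tested. Acute-phase and complement medians were 2.30 with rRNA depletion, where the summed marker level was lower at PD8, and 2.15 with poly(A), where it was higher. Interferon-stimulated medians were 0.62 and 2.02 in the same order, and cytokine and chemokine medians 0.41 and 1.58. C1qa, a chain of complement C1q, and Mrc1, the mannose receptor, had the largest fitted differences of the markers, -1.76 (SE 0.533) and -1.37 (SE 0.323), and Mrc1 was the only marker 2-fold lower in both methods.

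The GAAANNGAA string of the interferon-stimulated response element was found in the windows of 19 of 29 interferon-stimulated genes (65.5%) and in 7.03% of all windows. Isg15 is shown for its matches (GRCm38.p6, chr4:156200769-156201068, minus strand).
Isg15: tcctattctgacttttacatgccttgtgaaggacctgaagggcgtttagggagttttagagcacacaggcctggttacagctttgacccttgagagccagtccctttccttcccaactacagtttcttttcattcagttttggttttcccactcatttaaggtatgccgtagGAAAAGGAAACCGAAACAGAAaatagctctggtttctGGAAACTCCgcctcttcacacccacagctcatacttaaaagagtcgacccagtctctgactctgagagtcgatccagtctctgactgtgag
Capitals mark 3 matches to GAAANNGAA that overlap each other, at bases 173, 179 and 185, and 1 match to GGANTTTCC on the opposite strand at base 210. Among the MHC class I genes with a window, 5 of 17 held GAAANNGAA (29.4%).

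Genes for antigen presentation by MHC class I were higher in both methods, with medians of 0.56 and 0.73. Of 20 tested, 11 were higher and 0 lower at the unadjusted threshold, and H2-D1, H2-T23, Tap2 and Psmb8 were 2-fold higher in both. Psmb8, an immunoproteasome subunit, had 2.79 TPM at PD2 and 13.1 TPM at PD8 with rRNA depletion, and 4.24 and 15.9 TPM with poly(A) enrichment. Tap2, a subunit of the peptide transporter of the endoplasmic reticulum, had 7.01 TPM at PD2 and 26.2 TPM at PD8 with rRNA depletion, and 7.94 and 27.1 TPM with poly(A) enrichment. H2-D1, a classical heavy chain, had 74.9 TPM at PD2 and 162 TPM at PD8 with rRNA depletion, and 83.8 and 254 TPM with poly(A) enrichment, and the H2 genes have near-identical copies that could share reads. The chaperones Calr and Pdia3 had fitted differences of -0.071 (SE 0.171) and -0.14 (SE 0.170).

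**Figure D5:**
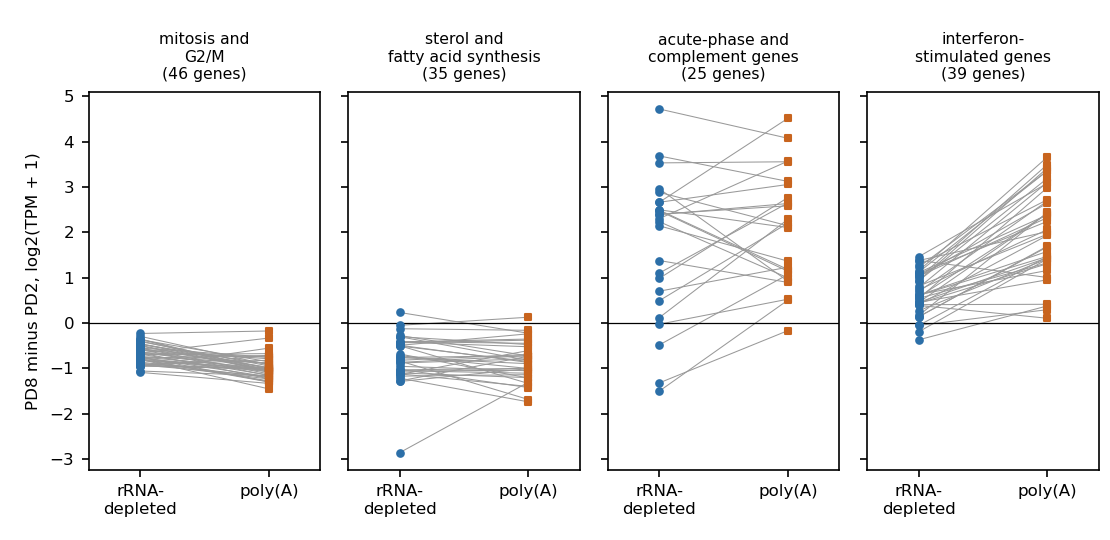
PD8 minus PD2 difference of log2(TPM + 1) for each tested member of 4 lists, with a line joining the rRNA-depleted (circle) and poly(A) (square) value of a gene. All 46 mitosis genes lie below 0 in both methods, 33 of 35 sterol and fatty acid genes do, and 37 of 39 interferon-stimulated genes are higher in the poly(A) pair than in the rRNA-depleted pair.

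Extracellular proteases and their inhibitors had a median of 0.33, with 10 of 28 higher and 2 lower at the unadjusted threshold. The 3 at 2-fold in both methods were inhibitors, not proteases: Serpine2 had 401 TPM at PD2 and 1193 TPM at PD8 with rRNA depletion, and 309.6 and 842 TPM with poly(A) enrichment, Timp2 had 794 TPM at PD2 and 1750.3 TPM at PD8 with rRNA depletion, and 555 and 1412 TPM with poly(A) enrichment, and Timp3 had fitted 1.03 (SE 0.189). Serpine2 blocks thrombin and plasminogen activators, and the Timp proteins block metalloproteinases. Mmp3, a stromelysin, had 61.9 TPM at PD2 and 118 TPM at PD8 with rRNA depletion, and 69.7 and 807 TPM with poly(A) enrichment, a difference of 0.92 in the first method and 3.52 in the second. Mmp13, a collagenase, had 62.5 TPM at PD2 and 15.6 TPM at PD8 with rRNA depletion, and 11.6 and 89.9 TPM with poly(A) enrichment, opposite in the 2 methods.

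Growth factors and their binding proteins were mixed, with 13 of 43 higher and 3 lower at the unadjusted threshold. Hgf, the ligand of the Met receptor, had 10.9 TPM at PD2 and 40.5 TPM at PD8 with rRNA depletion, and 8.46 and 22.3 TPM with poly(A) enrichment, and Vegfd, a lymphatic growth factor, had 60.01 TPM at PD2 and 143 TPM at PD8 with rRNA depletion, and 27.9 and 80.8 TPM with poly(A) enrichment. Of the IGF-binding proteins, Igfbp3 had 304 TPM at PD2 and 509.5 TPM at PD8 with rRNA depletion, and 143 and 445 TPM with poly(A) enrichment, and Igfbp5 had 719 TPM at PD2 and 237 TPM at PD8 with rRNA depletion, and 347 and 97.99 TPM with poly(A) enrichment, the opposite direction. Igfbp2 had 127 TPM at PD2 and 2249 TPM at PD8 with rRNA depletion, and 164 and 209 TPM with poly(A) enrichment, so its difference was 4.14 in the first method and 0.34 in the second. Pgf, placental growth factor, was 2-fold lower in both methods, at -1.28 and -1.72.

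Imprinted genes of fetal growth had 6 of 18 lower and 1 higher at the unadjusted threshold, and Cdkn1c, Peg3 and Slc38a4 were 2-fold lower in both methods. Peg3, a zinc-finger protein, had 333 TPM at PD2 and 152 TPM at PD8 with rRNA depletion, and 148 and 58.6 TPM with poly(A) enrichment, and Slc38a4, an amino acid transporter, had 84.6 TPM at PD2 and 23.8 TPM at PD8 with rRNA depletion, and 80.9 and 15.8 TPM with poly(A) enrichment. Igf2, the fetal growth factor, had 1749 TPM at PD2 and 179 TPM at PD8 with rRNA depletion, and 307 and 228 TPM with poly(A) enrichment, a large difference with rRNA depletion and a small one with poly(A). Mest had 623 TPM at PD2 and 1227 TPM at PD8 with rRNA depletion, and 146 and 56.8 TPM with poly(A) enrichment, higher in 1 method and lower in the other.

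Genes of sterol and fatty acid synthesis were lower at PD8. Of 35 tested, 30 were lower and 0 higher at the unadjusted threshold, 33 were negative in both methods, and 9 were 2-fold lower in both, while 0 passed the adjusted threshold. The medians were -0.76 and -0.85. Along the pathway, Hmgcs1, the synthase that makes HMG-CoA, had 451 TPM at PD2 and 207 TPM at PD8 with rRNA depletion, and 645 and 244 TPM with poly(A) enrichment. Sqle, which makes squalene epoxide, had 181 TPM at PD2 and 84.03 TPM at PD8 with rRNA depletion, and 276 and 119.5 TPM with poly(A) enrichment, and Dhcr7, the final reductase to cholesterol, had 71.5 TPM at PD2 and 30.3 TPM at PD8 with rRNA depletion, and 111 and 32.8 TPM with poly(A) enrichment. Scd1, a fatty acid desaturase, had 259 TPM at PD2 and 105 TPM at PD8 with rRNA depletion, and 258 and 128 TPM with poly(A) enrichment. For Hmgcs1, Sqle, Dhcr7 and Scd1, both PD8 values lay below both PD2 values. The regulator Srebf2, a transcription factor that turns on these genes, differed by -0.47 (SE 0.114), -0.42 and -0.52 in the 2 methods.

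The Hmgcs1 window is shown as the pathway's entry and for its matches (GRCm38.p6, chr13:119690101-119690400, plus strand).
Hmgcs1: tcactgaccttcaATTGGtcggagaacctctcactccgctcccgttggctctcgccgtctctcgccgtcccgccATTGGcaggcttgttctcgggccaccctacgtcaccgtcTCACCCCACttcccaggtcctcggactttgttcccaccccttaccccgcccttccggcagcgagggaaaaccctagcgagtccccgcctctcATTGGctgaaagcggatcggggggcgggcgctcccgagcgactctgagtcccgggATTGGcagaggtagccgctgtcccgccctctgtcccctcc
Capitals mark CCAAT on the opposite strand, read as ATTGG, at bases 14, 75, 206 and 261, and TCACNCCAC at base 114. CCAAT was found in 20 of 24 windows of the list (83.3%), against 38.9% of all windows. TCACNCCAC, a string added after values were seen, was in 1 of 24 (4.17%), the Hmgcs1 window shown, and in 1.05% of all windows.

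Fibrillar and basement membrane matrix had 13 of 48 genes higher and 1 lower at the unadjusted threshold (median 0.26). Fmod, a proteoglycan that binds collagen fibrils, had 80.9 TPM at PD2 and 589 TPM at PD8 with rRNA depletion, and 24.3 and 66.5 TPM with poly(A) enrichment and was the only member 2-fold higher in both methods. Mfap4, a microfibril protein, had 97.7 TPM at PD2 and 47.1 TPM at PD8 with rRNA depletion, and 235 and 96.6 TPM with poly(A) enrichment, the only one 2-fold lower in both. Fn1, fibronectin, was among the most abundant genes, with 5538 TPM at PD2 and 8846 TPM at PD8 with rRNA depletion, and 4853 and 9345 TPM with poly(A) enrichment. Eln, which encodes elastin, had 160.1 TPM at PD2 and 192 TPM at PD8 with rRNA depletion, and 128 and 18.9 TPM with poly(A) enrichment, higher at PD8 in 1 method and far lower in the other.

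In the list of contractile and YAP-responsive genes, 3 of 30 were higher and 5 lower at the unadjusted threshold, and Des and Ankrd1 were 2-fold lower in both methods. Of the cytosolic ribosomal proteins, 60 of 76 were negative in both methods with a median of -0.21, and 6 were lower and 0 higher at the unadjusted threshold, a share below that of all genes. Rpl15 and Rps24 had the largest fitted differences, -0.72 (SE 0.207) and -0.45 (SE 0.169). Lysosomal genes had 10 of 39 higher and 1 lower, and the protease Ctsf, the only member 2-fold higher in both methods, had 19.3 TPM at PD2 and 51.9 TPM at PD8 with rRNA depletion, and 17.2 and 73.7 TPM with poly(A) enrichment. Ctsc, another lysosomal protease, was at -2.11 and -0.71. In the list of oxidative stress genes, 13 of 37 were higher and 5 lower, Sod3 and Osgin1 were 2-fold higher in both methods and Gpx1 2-fold lower. Sod3, the extracellular superoxide dismutase, had 21.9 TPM at PD2 and 66.5 TPM at PD8 with rRNA depletion, and 9.79 and 126 TPM with poly(A) enrichment, and Gpx1, a selenium-dependent glutathione peroxidase, had 328 TPM at PD2 and 96.1 TPM at PD8 with rRNA depletion, and 348 and 154 TPM with poly(A) enrichment. Of 34 glycolysis and hypoxia genes, 4 were higher and 2 lower. The 2-fold members were the vasoactive peptide Adm, with 52.9 TPM at PD2 and 173 TPM at PD8 with rRNA depletion, and 39.5 and 94.2 TPM with poly(A) enrichment, and the glucose transporter Slc2a3, with 5.82 TPM at PD2 and 1.63 TPM at PD8 with rRNA depletion, and 10.7 and 3.86 TPM with poly(A) enrichment.

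In 4 further lists no member was 2-fold different in both methods. AP-1 and immediate early genes had 0 of 26 higher and 2 lower, with medians of 0.32 and -0.46 in the 2 methods, and their members Nr4a1 and Atf3 were at -0.98 (SE 1.19) and -0.91 (SE 0.614). Nuclear-encoded respiratory chain genes had 1 of 49 higher and 5 lower with a median of -0.14, led by Cycs at -0.55 (SE 0.142) and Cox5a at -0.52 (SE 0.180). The unfolded protein response had 0 of 28 higher and 2 lower with a median of -0.13, led by Trib3 at -0.57 (SE 0.196) and Chac1 at -0.51 (SE 0.263). Hox genes had 4 of 36 higher and 4 lower, with a median of -0.12. Within the Hox list, Hoxc12 and Hoxb9 had the largest differences, -1.20 (SE 0.447) and -0.92 (SE 0.343), and Hoxd13, a gene of the distal limb, was at 0.84 and 0.70.

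Markers of skeletal and cardiac muscle were lower at PD8 in both methods. Of 20 listed, 10 passed the filter on low values. Of these 10, 6 were lower and 1 higher at the unadjusted threshold and 5 were 2-fold lower in both, against 0.871% of all genes. The 20 listed markers summed to 65.8 TPM at PD2 and 26.8 TPM at PD8 with rRNA depletion, and 141 and 43.6 TPM with poly(A). Besides Des, the 2-fold lower ones were Actc1, Tnnt2, Myh3 and Mylpf, all of the sarcomere. Tnnt2, cardiac troponin T, had 3.51 TPM at PD2 and 1.02 TPM at PD8 with rRNA depletion, and 14.6 and 2.001 TPM with poly(A) enrichment. Actc1, cardiac actin, had 1.48 and 5.69 TPM at PD2 and was listed at 0 in both PD8 libraries. Actc1 thus passed the filter through PD2 alone, which favours its being counted as lower. The regulator Myod1 was below 1 TPM at PD2 and listed at 0 in both PD8 libraries, and Myf5 was at 0 in all 4 libraries. Cav3, a muscle caveolin, went the other way, with 3.24 TPM at PD2 and 10.3 TPM at PD8 with rRNA depletion, and 1.74 and 3.87 TPM with poly(A) enrichment.

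Epithelial markers were few, since 6 of 16 passed the filter on low values, and 3 of these were lower at the unadjusted threshold. Of the 6, Krt18 passed that filter through its PD2 libraries alone. Krt18, a simple-epithelial keratin, had 6.53 TPM at PD2 and 0.143 TPM at PD8 with rRNA depletion, and 5.97 and 0.831 TPM with poly(A) enrichment, and Krt19 had 13.4 TPM at PD2 and 8.003 TPM at PD8 with rRNA depletion, and 28.5 and 7.29 TPM with poly(A) enrichment. Of 13 neural and glial markers, 6 were lower and 1 higher. Gap43, a growth cone protein and 1 of 3 members 2-fold lower in both methods with Nes and Fabp7, had 40.2 TPM at PD2 and 5.35 TPM at PD8 with rRNA depletion, and 88.7 and 41.6 TPM with poly(A) enrichment, and Map2, a microtubule protein of dendrites, had 32.4 TPM at PD2 and 124 TPM at PD8 with rRNA depletion, and 9.36 and 29.4 TPM with poly(A) enrichment, the only member 2-fold higher in both. Summed neural marker levels were 296 and 208 TPM with rRNA depletion and 375 and 294 TPM with poly(A). Endothelial markers had 3 of 8 lower and 0 higher, with Kdr and Flt1, receptors of vascular endothelial growth factor, at -0.998 (SE 0.231) and -0.85 (SE 0.165) and the defining genes Tie1, Cldn5 and Sox17 at 0 in all 4 libraries. Of the chondrocyte and osteoblast markers, 2 of 14 were higher, with Comp at 16.9 TPM at PD2 and 169 TPM at PD8 with rRNA depletion, and 0.976 and 3.48 TPM with poly(A) enrichment, and Col10a1, a collagen of hypertrophic cartilage, at 0.44 and 2.29. Of the adipocyte markers 2 of 6 were lower, Lpl was 2-fold lower in both methods at -1.06 and -1.57, and Plin4 was at 1.91 and 0.19. Among the 15 fibroblast markers, 5 were higher and 1 lower, with Lum, a proteoglycan, at 1.19 (SE 0.270) and the surface protease Fap at -1.19 (SE 0.352). The erythroid list had 1 tested member, the transferrin receptor Tfrc, at -1.37 and -1.47, while its haemoglobin genes stayed below 1 TPM. The part of these marker levels in the other lower genes was not tested.

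A few genes went 2-fold in opposite directions in the 2 methods: 22 in all, 19 of them lower at PD8 with rRNA depletion and higher with poly(A). Of the 22, 9 were histone genes. Mmp13, Cxcl10, Ccl8, Ccl3, Adgre1 and Cybb were among the 19, and Thbs4, a matrix thrombospondin, was among the other 3 with 17.3 TPM at PD2 and 108 TPM at PD8 with rRNA depletion, and 6.31 and 0.307 TPM with poly(A) enrichment. For these genes the library method and the culture or library behind it cannot be told apart.

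Set beside the next step, from PD8 to PD14, the early step held more genes at 2-fold in both methods: 239 higher and 113 lower against 40 (0.308%) and 9 (0.0693%). The median absolute change was 0.265 with rRNA depletion and 0.306 with poly(A) in the early step, and 0.217 and 0.183 in the late one. Both steps were measured over the 12981 genes filtered on the PD2 and PD8 libraries, whereas 13332 pass the same filter over all 6 libraries. Genes that reached it only with PD14 were left out, which favours the early step in this comparison. In the late step 0% passed the adjusted threshold in limma (smallest adjusted p 0.856), with 736 genes (5.67%) at an unadjusted p under 0.05. The difference between the steps was tested in the same model, and 0% of genes passed (smallest adjusted p 0.9996), with 567 (4.37%) at an unadjusted p under 0.05. The PD8 to PD14 step and the PD2 to PD8 step each span 6 doublings and share the PD8 libraries, so a high or low PD8 value moves them in opposite directions.

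The genes past the threshold were chosen on their early step, so their late values are a description. C3 had 360.0 and 107 TPM at PD14, a fitted further difference of 1.304 (SE 0.210), C1s1 had 511 and 237 TPM (1.09, SE 0.124), and Rspo2 had 353 and 39.7 TPM (0.47, SE 0.161). Among the genes with the smallest p for a difference between steps, Tnn, the matrix protein tenascin N, had 32.8, 149 and 109.9 TPM at PD2, PD8 and PD14 with rRNA depletion, and 31.95, 164 and 75.5 TPM with poly(A). Among those whose late step was the higher, Gpx1 had 328, 96.1 and 243 TPM with rRNA depletion, and 348, 154 and 405 TPM with poly(A), so PD8 was its lowest point in both methods. Glmp, a lysosomal membrane protein, was highest at PD8 in both methods, at 50.7, 73.1 and 31.99 TPM and 119, 164 and 78.2 TPM. Ptx3 and Rcan2, an inhibitor of calcineurin, were at 2.49 and 1.82 in the early step and 0.19 and -0.23 in the late one. Cdkn2a was at 2.37 in the early step and 0.25 (SE 0.212) in the late one. Mdk, Rnf220, Sqle and Mob2 were the other genes whose late step exceeded the early one by the smallest p, at unadjusted p of 0.00156 for Mdk and 0.00247 for Mob2. None of these differences passed the adjusted threshold.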

How the data were processed

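TPM per gene symbol were deposited by the authors in 1 table of 6 libraries; bcl2fastq, cutadapt 1.14, HISAT2 2.0.5 and StringTie 1.3.1c on mm10 are named in the submitters' processing notes, and strand settings and annotation are not given in the sources used here. TPM keep no read depth. Here log2(TPM + 1) was fitted with limma 3.58.1 (R 4.3.3; passage plus library method, empirical Bayes with trend, 2 residual degrees of freedom) on genes with at least 1 TPM in 2 or more of the 4 PD2 and PD8 libraries, with two-sided p-values adjusted by Benjamini-Hochberg at 0.05. Fold changes on this scale understate those of low genes. Replicate numbers pair the libraries because the labels tie them to the method, and deviations of same-numbered libraries from their group means correlated at 0.674 to 0.853. The script was tested on simulated data.

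Named genes were those past the threshold, the 15 per direction with the largest smaller difference of the 2 methods among genes 2-fold different in both (mean of at least 5 TPM; predicted, mitochondrial, small RNA and histone genes passed over), a panel of senescence genes, the 2 largest fitted differences of each list, and 5 per direction by the p of the difference between steps; some of these genes are not reported here. The comparison and the lists were chosen with earlier results of these data known. Of the 21988 symbols, 21506 matched 1 gene of GENCODE M21. Promoter windows are from RefSeq (GRCm38.p6); TCACNCCAC was added to the strings after values were seen. Alternatives changed the pseudocount, filter, scaling, trend, block and libraries.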

Additional observations from a re-analysis of the deposited data

Results flagged for a closer look

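Some differences between PD2 and PD8 had opposite signs in the rRNA-depleted pair and in the poly(A) pair. The difference between the methods was not tested for any of them, since each method had 1 library per passage. Values are the poly(A) difference minus the rRNA-depleted difference on the log2(TPM + 1) scale. Among list medians it was 1.95 for replication-dependent histones and 1.66 for macrophage and leukocyte markers, both lower at PD8 with rRNA depletion and higher with poly(A). It was 0.517 for lysosomal genes, 0.408 for glycolysis and hypoxia, 0.291 for oxidative stress genes, 0.282 for Hox genes and 0.209 for the unfolded protein response. It was -0.780 for AP-1 and immediate early genes, -0.559 for adipocyte markers and -0.526 for contractile and YAP-responsive genes. Of the panel of senescence genes, Mmp13 stood at 4.79 and Il6 at 1.54, both lower at PD8 with rRNA depletion.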

How the results depend on the processing

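The 3 genes higher at PD8 depended on the fit. The count was 0 in the 4 libraries alone, with a pseudocount of 5, with no filter on low values (17926 genes), with quantile normalization and with no trend, and 21 with a pseudocount of 0.1. It was 2 with mitochondrial genes removed and the rest rescaled, where adjusted p was 0.0615 for C3. With no replicate block it was also 0 in limma (smallest adjusted p 0.855), with 456 genes higher and 256 lower at an unadjusted p under 0.05. Leaving out 1 library at a time gave 0 to 569 genes higher and 0 to 176 lower, and 0 to 2 genes whose late step exceeded the early one and 0 to 17 below it. Genes 2-fold different in both methods numbered 388 higher and 197 lower with a pseudocount of 0.1, and 106 and 34 with 5; these alternatives were chosen after seeing the data. The cause was not tested. Over the named genes, 1577 alternative values kept direction and side of the threshold, 111 newly passed it, 31 no longer passed and 11 changed sign. Those 11 were in Il6, Mmp13, Eln, Hist1h4h and Nr4a1. Without the poly(A) PD2 library Eln was 0.606, Hist1h4h -0.705, Il6 -1.32 and Mmp13 -2.28. Without the rRNA-depleted PD8 library Il6 was -0.170; without the poly(A) PD8 library Mmp13 was -0.399 and Nr4a1 0.490. Il6 was also -0.0427 with a pseudocount of 5, -0.0118 with mitochondrial genes removed and the rest rescaled, -0.107 with quantile normalization and -0.0334 with median centring. Over the fits that left out 1 library, these values ranged from -3.04 to 0.606 for Eln, -0.705 to 2.6004 for Hist1h4h, -1.32 to 1.36 for Il6, -2.28 to 3.19 for Mmp13 and -2.45 to 0.490 for Nr4a1. The unadjusted split of 1593 higher and 1117 lower was 1332 and 1441 with quantile normalization and 1404 and 1314 with mitochondrial genes removed. Over the alternatives, 9 changed sign: replication-dependent histones (-1.33 to 1.08), macrophage markers (-1.32 to 0.342), AP-1 genes (-0.735 to 0.622), adipocyte markers (-0.404 to 0.488), contractile genes (-0.303 to 0.131), glycolysis (-0.1998 to 0.224), Hox genes (-0.211 to 0.185), oxidative stress (-0.117 to 0.421) and chondrocyte markers (-0.029 to 0.642). Others kept their sign but moved by over 1.5 times: interferon-stimulated genes (0.490 to 2.10), cytokines (0.156 to 1.46), NF-kappaB genes (0.124 to 0.705), lysosome (0.0150 to 0.523), imprinted genes (-0.787 to -0.217), respiratory chain (-0.198 to -0.034), unfolded protein response (-0.209 to -0.0157), and markers of muscle (-1.47 to -0.467), epithelium (-1.63 to -0.298), neural cells (-0.910 to -0.359), endothelium (-0.492 to -0.119) and fibroblasts (0.108 to 0.382). The other lists tested moved by less, among them acute-phase and complement genes (1.58 to 2.30), mitosis (-1.13 to -0.607) and sterol genes (-0.919 to -0.756). TPM give no read depth, so counting error of low genes could not be given.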
